A study of Mus musculus with 2 samples.

Results

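The cells described here are T cells of inflamed mouse ear skin that carried reads of Trdc, the constant gene of the T cell receptor delta chain, or of Cd163l1, a scavenger receptor gene also called Scart1. There were 62 such cells among 8359 barcodes within the limits of at most 20% mitochondrial reads and at least 200 genes. They were chosen by measured values in counts per 1000000 reads of the cell (CPM): the 3 genes Cd3e, Cd3g and Cd3d summed to at least 100 CPM, Trdc and Cd163l1 summed to at least 50 CPM, Ncr1 was under 50 CPM, Csf1r under 100 CPM and Pdgfra under 50 CPM. The values of these genes are therefore given as a description only. The lowest Trdc and Cd163l1 sums inside the limit were 94.5, 100 and 125 CPM, the median was 1850 CPM and the highest 10865 CPM. Of the T cells outside it, 1 had a read, at 22.0 CPM, and the others had 0.

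The samples came from IgE-mediated chronic allergic inflammation, a model in which mice are sensitised with hapten-specific IgE and the hapten is then injected into the ear. BALB/c mice, wild type (WT) or Ccr2-/-, received 300 µg of IgE against TNP intravenously and 10 µg of TNP-OVA in the ear skin, and cells were taken on day 3 or day 5. Each genotype and day gave 1 pool marked by its own hashtag antibody, and all 4 pools went into 1 cDNA library, made by TAS-Seq on the BD Rhapsody microwell system. All groups received the IgE and the antigen, the number of mice in a pool was not stated, and Ccr2-/- mice lack the receptor by which classical monocytes enter inflamed tissue. Of the 62 cells, 9 and 2 came from the WT pools of day 3 and day 5, 28 and 21 from those of Ccr2-/- mice, and 2 carried several hashtags and belong to no pool.

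Gamma-delta T cells bear a receptor of a gamma and a delta chain in place of the alpha and beta chains of CD4 and CD8 T cells. In mouse skin they comprise dendritic epidermal T cells and dermal cells, and many of the dermal cells are set in the thymus to make IL-17. Blk is a Src-family kinase, and Sox13 and Maf are transcription factors, all known from IL-17-producing gamma-delta T cells. Cd163l1 (Scart1) and 5830411N06Rik (Scart2) are scavenger receptor genes known to mark different groups of these cells.

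The constant genes of the gamma chain decide how far reads can be told apart, so the start of their coding sequence is shown, with Trdc for comparison. Each line holds the first 90 coding bases, in the first coding exon, on GRCm38 (GENCODE M21, where the gamma genes are listed as Tcrg-C1 to Tcrg-C4). Trgc1 lies at chr13:19214103-19214192 on the plus strand, Trgc2 at chr13:19307462-19307551 on the minus strand, Trgc3 at chr13:19260885-19260974 and Trgc4 at chr13:19344558-19344647 on the plus strand, and Trdc at chr14:54142851-54142940 on the plus strand. Capitals in the lines of Trgc2, Trgc3 and Trgc4 mark bases that differ from Trgc1, and Trdc was not aligned to it.
Trgc1: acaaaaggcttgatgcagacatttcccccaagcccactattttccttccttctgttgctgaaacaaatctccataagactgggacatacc
Trgc2: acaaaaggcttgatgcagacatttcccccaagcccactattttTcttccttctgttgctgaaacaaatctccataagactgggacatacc
Trgc3: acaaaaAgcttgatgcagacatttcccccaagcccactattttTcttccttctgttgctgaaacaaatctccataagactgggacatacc
Trgc4: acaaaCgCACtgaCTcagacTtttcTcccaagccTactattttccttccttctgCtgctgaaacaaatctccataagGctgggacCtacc
Trdc: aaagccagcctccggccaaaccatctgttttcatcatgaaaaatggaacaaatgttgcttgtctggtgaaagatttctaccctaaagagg
Trgc2 differed from Trgc1 at 1 of these 90 bases, Trgc3 at 2 and Trgc4 at 12. Over the whole transcripts, 17.9% of the 875 stretches of 50 bases in Trgc1 also occurred in Trgc2, while Trgc4 shared 0 of its 936 stretches with the other gamma genes. Reads of Trgc1, Trgc2 and Trgc3 are therefore uncertain between these genes, and reads of Trgc4 are not affected by stretches shared among them.

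The Scart genes are neighbours on chromosome 7, on the same strand, with 16138 bases between the end of Cd163l1 (chr7:140218267-140231145) and the start of 5830411N06Rik (chr7:140247284-140300736). Their transcripts shared 0 stretches of 50 bases. The 250 bases before each RefSeq start (GRCm38.p6) are shown because the genes were mostly read in different cells, together with those before the cytokine gene Il17a. The windows are chr7:140218017-140218266, chr7:140247051-140247300 and chr1:20730655-20730904, all on the plus strand. Capitals mark AGGTCA or its reverse complement TGACCT, the half-site that many nuclear receptors bind.
Cd163l1: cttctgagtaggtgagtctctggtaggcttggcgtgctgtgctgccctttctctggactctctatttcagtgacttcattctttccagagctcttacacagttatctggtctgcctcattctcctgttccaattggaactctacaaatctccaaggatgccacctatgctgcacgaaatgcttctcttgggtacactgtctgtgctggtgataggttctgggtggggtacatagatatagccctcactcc
5830411N06Rik: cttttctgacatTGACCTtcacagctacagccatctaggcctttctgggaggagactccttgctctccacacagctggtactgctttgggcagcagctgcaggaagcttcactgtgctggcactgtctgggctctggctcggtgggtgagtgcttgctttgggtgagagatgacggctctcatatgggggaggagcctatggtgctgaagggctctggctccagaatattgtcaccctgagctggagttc
Il17a: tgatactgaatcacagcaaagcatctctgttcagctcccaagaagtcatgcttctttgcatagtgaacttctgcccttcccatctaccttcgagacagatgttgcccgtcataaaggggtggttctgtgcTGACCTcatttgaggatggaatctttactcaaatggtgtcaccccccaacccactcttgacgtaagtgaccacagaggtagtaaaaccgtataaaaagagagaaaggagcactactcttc
The 6 letters were absent from the Cd163l1 window, began 238 bases before the start of 5830411N06Rik and began 120 bases before the start of Il17a. On either strand they occurred in 14.0% of 32851 mouse promoters of this kind, so the matches are a description of the letters only.

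The 60 cells with a pool had 4407 to 47739 reads (median 17072.5) and a median of 1762 genes. Summed by pool they held 134319, 68200, 485200 and 372496 reads. Series of 4 values here name both WT pools before both Ccr2-/- pools, with day 3 before day 5. They were set against 220 T cells without Trdc or Cd163l1 of the same pools, called other T cells (median 14195 reads), and against 215 NK cells gated on Ncr1 (median 26790 reads). Reads are not molecules, so all intervals cover counting error only. Where shares of cells with a read are compared between classes, each cell was thinned to 10000 reads, which left out 11 of the 60 cells.

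The label was checked against the markers. Trdc alone placed 41 of the 62 cells in the gate, Cd163l1 alone 4, and both genes 17. A read of a gamma constant gene was present in 45 of the 62 cells. Cd4 was read in 1 and Cd8a in 0 of the 60 cells with a pool, against 34 and 12 of the 220 other T cells, and a cell without a read may still express the gene. Trac, the alpha constant gene, was read in 24 of the 62, of which 19 also held a gamma constant gene and 5 did not. At 10000 reads Trac was read in 38.8% of these cells, 53.6% of other T cells and 7.58% of NK cells. The beta constant genes Trbc1 or Trbc2 were read in 47 of the 62 cells and went the other way. At 10000 reads Trbc1 was read in 61.2% of these cells, 44.4% of other T cells and 89.4% of NK cells. For Trbc2 the shares were 71.4%, 53.0% and 39.4%. Trdc is no marker against NK cells, because 34.8% of NK cells had a Trdc read at that depth. Ncr1 was part of the gate and is no check. The 4 other NK markers (Klrb1c, Klra8, Klra4 and Eomes) summed to 0 CPM in both WT pools and to 76.3 and 91.3 CPM in the Ccr2-/- pools. Free RNA was present, since the fibroblast gene Col1a1 was read in 89.8% of the cells at 10000 reads, and its part in the low levels was not tested.

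Other T cells were a mixed comparison group. Of the 220, 99 had a Trac read and 121 had none, 16 had a gamma constant gene and 19 had 5830411N06Rik, 14 of the latter together with Trac. They also held more RNA of granulocytes: 6 neutrophil markers summed to 523, 1593, 5070 and 12927 CPM in their pools against 81.9, 14.7, 74.2 and 2054 CPM in the gamma-delta T cells. The 6 mast cell and basophil markers summed to 265, 102, 23192 and 1724 CPM against 7.44, 14.7, 266 and 45.6 CPM.

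Ccr2, the deleted gene, was read at 208 and 1686 CPM in the WT gamma-delta T cells and at 105 and 107 CPM in the Ccr2-/- ones. Both Ccr2-/- pools lay below both WT pools, but reads remained. In other T cells the values were 1007, 896, 49.4 and 92.4 CPM, with the same order of genotypes. The fitted genotype difference in gamma-delta T cells was a log2 of -2.21 (SE 0.88) and did not pass the edgeR quasi-likelihood test after Benjamini-Hochberg adjustment. The matrix does not say where in the gene a read lies, so reads outside the deleted part cannot be told apart from an intact transcript. The WT day 5 value rests on 2 cells.

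Gamma-delta T cells were a small share of every pool. They made up 0.583% of the called cells on WT day 3 (95% exact binomial interval 0.267 to 1.10, 9 of 1543 cells) and 0.193% on WT day 5 (0.0234 to 0.695, 2 of 1037). In the Ccr2-/- pools they made up 1.28% on day 3 (0.851 to 1.84, 28 of 2191) and 0.895% on day 5 (0.555 to 1.36, 21 of 2347). Both Ccr2-/- pools lay above both WT pools, and the means, 1.09% and 0.388%, differed by 0.698 percentage points, a ratio of 2.80. An exact two-sided permutation test of the 4 pools gave p = 0.333, the smallest value that 6 splits allow. Of the cells with CD3 reads they were 18.4%, 12.5%, 26.4% and 19.3%, where the ratio of the genotype means was 1.48. Leaving out WT day 3 moved the ratio over all cells to 5.63, and leaving out WT day 5 moved it to 1.86.

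**Figure D1:**
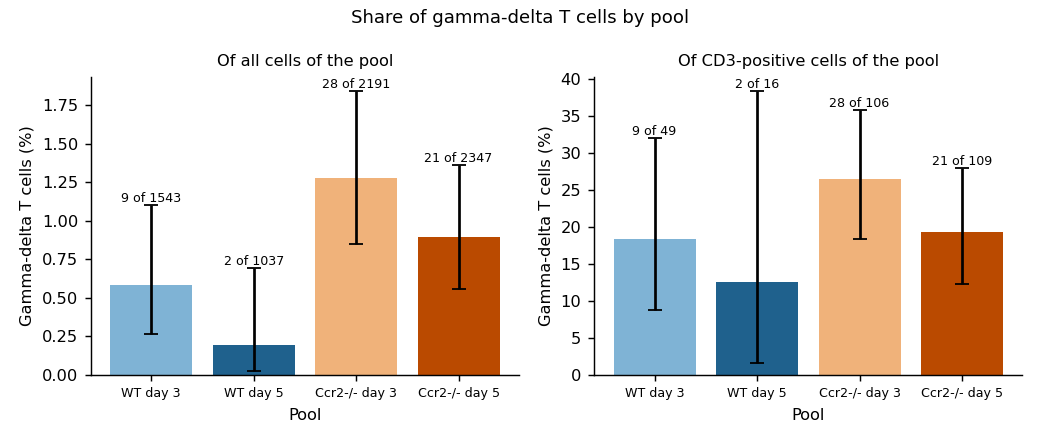
Bars give the percentage of gamma-delta T cells among all called cells (left) and among CD3-positive cells (right) of each pool, with 95% exact binomial intervals and the cell counts above. Both Ccr2-/- bars stand above both WT bars in either panel, while the intervals of WT day 3 overlap those of both Ccr2-/- pools.

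The Scart genes were mostly read in different cells. Of the 62 cells, 15 held Cd163l1 only, 27 held 5830411N06Rik only, 6 held both and 14 held neither. Cd163l1 ran from 196 to 7002 CPM (median 2529) in the cells with it alone, and 5830411N06Rik from 173 to 4631 CPM (median 1708) in the cells with it alone. Among the 6 cells with both, the read pairs of Cd163l1 and 5830411N06Rik were 34 and 41, 26 and 27, 1 and 36, 9 and 3, 34 and 11, and 9 and 99, so that 2 of them held like numbers of each. The cells with Cd163l1 only numbered 2, 0, 7 and 5 by pool, those with 5830411N06Rik only 3, 1, 13 and 9, those with both 1, 1, 1 and 3, and those with neither 3, 0, 7 and 4. All 4 subsets were thus found in both genotypes. Their median depths were 17091, 19954, 17533.5 and 11137 reads. These subsets are cut from measured reads and no pool held 10 cells in each of them, so what follows on them is a description without a test.

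**Figure D2:**
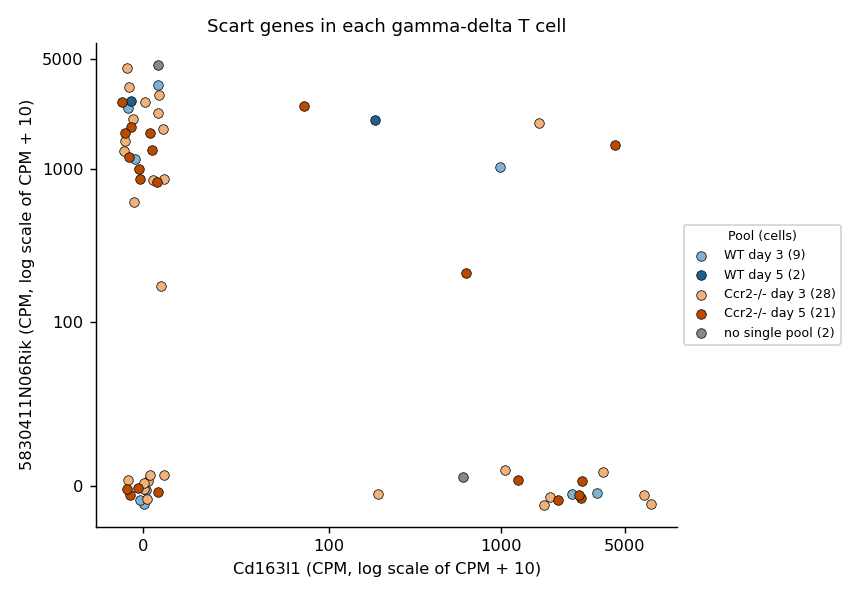
Each point is a gamma-delta T cell, coloured by pool, placed by its CPM of Cd163l1 (x) and 5830411N06Rik (y) on a log scale of CPM + 10; points at 0 are spread sideways. Most points lie along an axis, with 15 cells on the x axis only, 27 on the y axis only and 6 off both axes.

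The receptor genes differed between the Scart subsets. Trdv4, a delta variable gene of epidermal and of some dermal cells, was read in 7 of the 15 cells with Cd163l1 only (74 reads) and in 0 cells of the other subsets. It had 0 reads in other T cells and in NK cells. All 3 cells with Trgv5 or Trgv6, gamma variable genes known to pair with Trdv4, were in the same subset, with 8 and 20 reads. Trdv4 was read together with Trgv5 in 0 cells and with Trgv6 in 1 cell. In NK cells Trgv5 had 2 reads and Trgv6 had 0. Trdv5 was read in 4 cells, all with 5830411N06Rik only, at 7 reads in all. Trgv2 was read in 6 of the 27 cells with 5830411N06Rik only and in 1 of the 15 with Cd163l1 only. Variable genes were sparse, with a gamma variable gene in 13 of the 62 cells and a delta variable gene in 13.

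Constant genes of the gamma chain were found in 12 of 15 cells with Cd163l1 only, 25 of 27 with 5830411N06Rik only, 5 of 6 with both and 3 of 14 with neither. Trgc1 was read in 10, 14, 5 and 1 of them and Trgc4 in 7, 11, 1 and 1. Trgc2 was read in 1 of 15 cells with Cd163l1 only against 13 of 27 with 5830411N06Rik only, that is at 41.8 against 532 CPM of the summed reads. The division of reads between Trgc1 and Trgc2 is uncertain, as their sequences above show.

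The transcription factor Sox13 was read in 10 of 27 cells with 5830411N06Rik only and 2 of 6 with both, and in 0 of the 15 with Cd163l1 only and 0 of the 14 with neither. Zbtb16, which encodes the innate-like lymphocyte factor PLZF, was read in 5, 2, 1 and 0 cells, and Ahr, a receptor for aromatic ligands, in 5, 1, 0 and 0. Blk was read in 11 of 15, 16 of 27, 3 of 6 and 0 of 14 cells, so all 30 cells with it also held a Scart gene. The receptor gene Il23r was read in 1, 6, 3 and 0 cells.

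Reads of the IL-17 cytokines were few. Il17a was read in 4 cells with Cd163l1 only and 3 with 5830411N06Rik only, and Il17f in 1 and 5 cells and in 1 cell with neither. In all, 14 of the 62 cells held Il17a or Il17f and 0 held both, which at these few reads says little on their joint use. The Il17a level rested on few cells: 1 cell gave 43.8% of its 153 reads in the 4 pools. Il22 had 32 reads, all in the WT day 3 pool, of which 93.8% came from 1 cell.

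**Figure D3:**
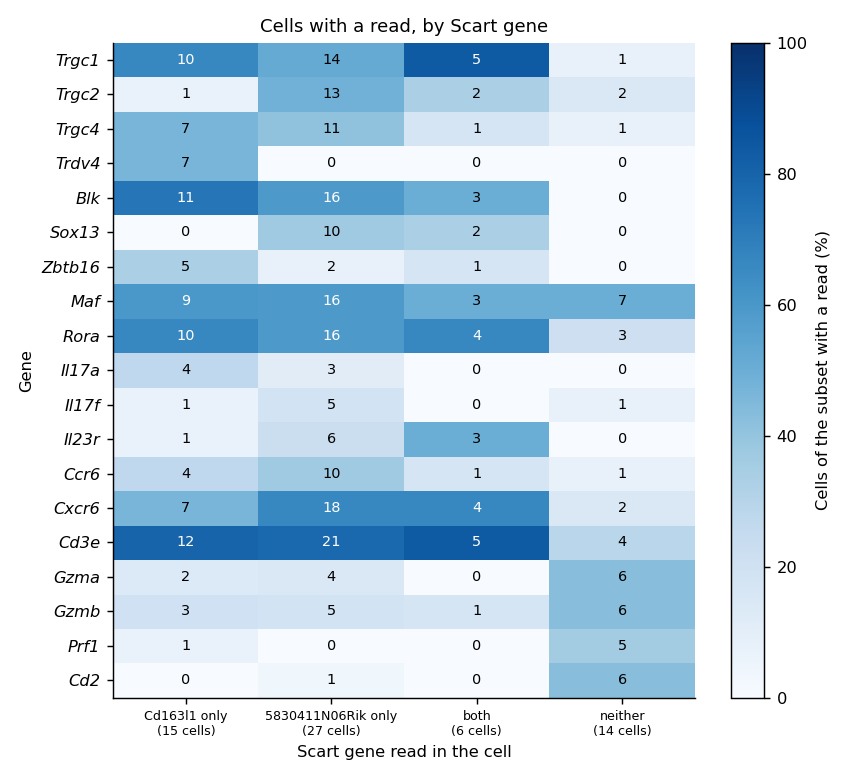
Rows are genes and columns the subsets by Scart gene; the number in each field counts the cells with a read, and the shade gives that number as a percentage of the subset. Trdv4 stands in the Cd163l1 column only, Sox13 in the columns with 5830411N06Rik, and Blk in 0 of the 14 cells with neither Scart gene, where Gzma, Gzmb and Cd2 were each read in 6.

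The 14 cells with neither Scart gene entered the gate by Trdc alone and differed in content. Cytotoxic granule genes were read here: Gzma (granzyme A) in 6 cells at 10116 CPM of the summed reads, Gzmb in 6 at 3097 CPM and Prf1 (perforin) in 5 at 319 CPM. These 6 cells held 816, 435, 427, 58, 7 and 1 Gzma reads. Gzma was also read in 6 of the 48 cells with a Scart gene. Gzmb was read in 3 cells with Cd163l1 only, 5 with 5830411N06Rik only and 1 with both, at 140, 37.0 and 7.65 CPM. Cd2 was read in 6, the T-box factor gene Eomes in 4 and Fasl in 4, whereas among the 48 cells with a Scart gene Cd2 was read in 1 and Eomes and Fasl in 0. Foxp3, the factor of regulatory T cells, was read in 3 and Ctla4 in 4. Cd3e was read in 4 of the 14, and the chemokine receptor gene Cxcr6 in 2 (11.6 CPM) against 7 of 15 and 18 of 27 in the subsets with 1 Scart gene. For these 14 cells the gamma-delta label rests on Trdc, a gene also read in NK cells.

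Gamma-delta T cells had higher Blk and gamma constant gene levels than other T cells, and lower levels of Lck and of several alpha-beta T cell, myeloid and inflammatory genes. Among 8235 genes tested on reads summed per pool, with the pool as a block, 6 were higher (0.0729%) and 71 lower (0.862%) at an adjusted p under 0.05. The median log2 difference over all genes was -0.71, and -0.51 when reads were scaled by library size only, where 8 genes were higher and 67 lower. Of 38 called genes recomputed under other settings, 4 kept their call in all of them: Trgc1, Thy1, Acod1 and Cstdc4. Gate genes have no part in what follows, and 5830411N06Rik (3.07), which was given as a marker, is no support.

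Blk was at 216, 411, 622 and 529 CPM in gamma-delta T cells and at 1.54, 0, 0 and 29.3 CPM in other T cells. All 4 gamma-delta values exceeded all values of other T cells. The difference was a log2 of 6.95 (SE 1.03, adjusted p = 4.48e-06, edgeR quasi-likelihood test with Benjamini-Hochberg adjustment). At 10000 reads per cell, 59.2% of gamma-delta T cells, 1.32% of other T cells, 0 of 198 NK cells and 0.0935% of fibroblasts had a Blk read. Lck, the Src-family kinase used by the T cell receptor in CD4 and CD8 T cells, showed the opposite order, with 44.7, 0, 0 and 0 CPM in gamma-delta T cells and 154, 215, 114 and 173 CPM in other T cells. The groups did not overlap, and the log2 difference was -5.79 (SE 1.41, edgeR quasi-likelihood test with Benjamini-Hochberg adjusted p = 0.0187). Lck was read in 1 of the 62 cells, in which Blk was not read. Its call was lost without WT day 5, without Ccr2-/- day 3 or without Ccr2-/- day 5 (edgeR adjusted p 0.0617, 0.231 and 0.434, log2 -5.12, -5.09 and -5.04).

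Trgc1 was at 268, 733, 655 and 631 CPM against 13.9, 0, 31.8 and 33.8 CPM, with no overlap and a log2 difference of 4.68 (SE 0.74, edgeR adjusted p = 1.36e-05). Trgc4 was at 119, 0, 305 and 209 CPM against 1.54, 0, 26.9 and 0 CPM, and was higher by a log2 of 5.68 (SE 1.51, edgeR adjusted p = 0.0412), with WT day 5 at 0 in both classes. Trgc4 lost its call without WT day 3, Ccr2-/- day 3 or Ccr2-/- day 5 (edgeR adjusted p 0.377, 0.358 and 0.857). Of the 4 gamma-delta receptor genes tested, these 2 were higher and 0 lower. Trgc2 (179, 0, 639 and 180 against 0, 90.02, 110 and 7.81 CPM) did not pass.

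The other genes called higher were Pxdc1 and S100a4. Pxdc1 was at 201, 674, 239 and 142 CPM against 44.6, 0, 57.6 and 2.60 CPM (log2 3.87, SE 1.02, edgeR adjusted p = 0.0387). S100a4, a calcium-binding protein of motile cells, was at 5666, 3314, 3613 and 4148 CPM against 2629, 2290, 1360 and 1014 CPM (log2 1.03, SE 0.27, edgeR adjusted p = 0.0384). In neither gene did the groups overlap. Pxdc1 lost its call under 10 of 15 other settings, among them without WT day 3, WT day 5 or Ccr2-/- day 5, and S100a4 under 9, among them without WT day 3 or either Ccr2-/- pool. Trgc1 kept its call under all 15 and Blk under 14. Blk lost it when only the pools with 10 or more gamma-delta T cells were used.

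**Figure D4:**
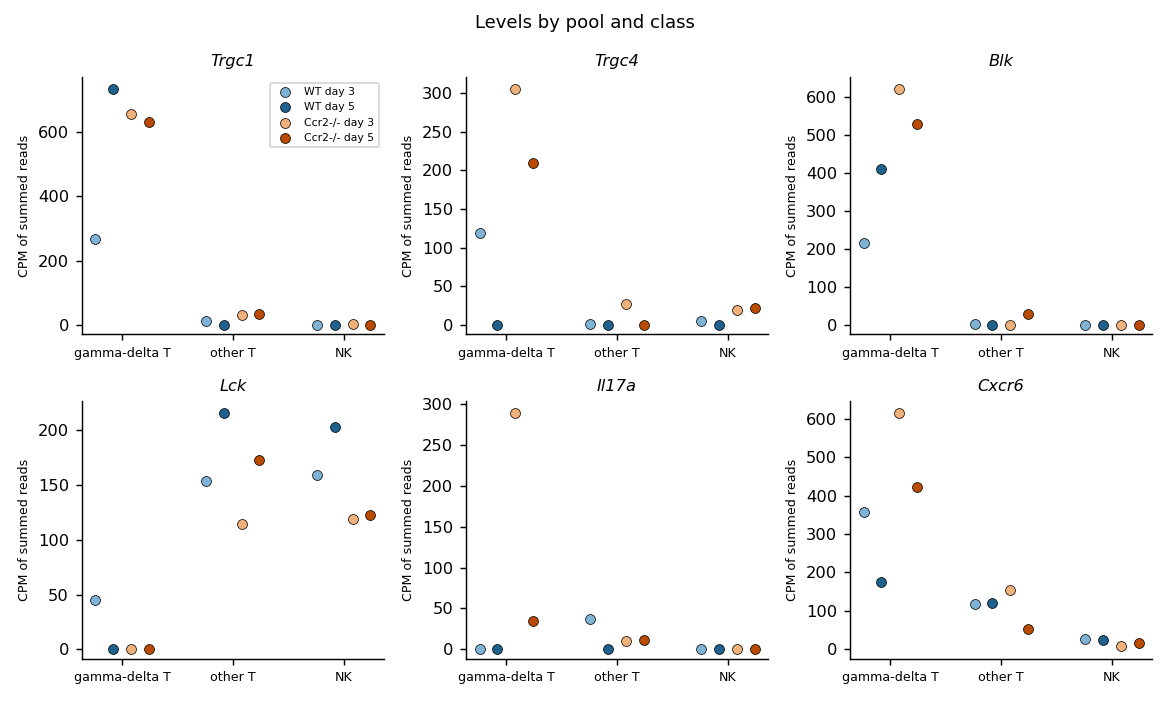
Points give CPM of summed reads (linear axis) in the gamma-delta T, other T and NK cells of each of the 4 pools, for Trgc1, Trgc4, Blk, Lck, Il17a and Cxcr6. Trgc1 and Blk stand high in the gamma-delta T cells of all pools, Lck is at 0 in 3 of their 4 pools, and Il17a is above 40 CPM in the Ccr2-/- day 3 gamma-delta T cells only.

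Of the 12 genes tested in the alpha-beta T cell list, 4 fell and 0 rose: Trac, Cd4, Cd8a and Cd8b1. The beta constant genes Trbc1 and Trbc2 were among those without a call. Cd4 was at 0, 0, 2.06 and 0 CPM against 131, 93.9, 103 and 139 CPM (log2 -7.09, SE 1.65, edgeR adjusted p = 0.0104). Cd8a was at 0 in all gamma-delta pools against 280, 513, 26.9 and 114 CPM, at least 44.6-fold lower against a floor of 3 reads over the group. Trac was at 179, 161, 251 and 140 CPM against 1204, 1460, 327 and 561 CPM (log2 -2.32, SE 0.53, edgeR adjusted p = 0.00766) and did not overlap between classes. Cd4 lost its call without WT day 3, Ccr2-/- day 3 or Ccr2-/- day 5 (edgeR adjusted p 0.124, 0.0922 and 0.325), and Trac without WT day 3 or WT day 5 (0.249 and 0.0915) and with Trdc alone as the gate. Cd8b1 (-5.14) lost its call under 4 of 15 alternatives, among them without WT day 3 or Ccr2-/- day 5 (edgeR adjusted p 0.0980 and 0.0687). The list of the CD3 complex and its signalling, with 11 genes tested, had 3 lower, Lck, the adhesion receptor gene Cd2 (-3.77) and Thy1 (-2.29), and 0 higher. Cd2 lost its call under 7 of 15 alternatives, among them without WT day 3, WT day 5 or Ccr2-/- day 3 (edgeR adjusted p 0.609, 0.121 and 0.0590), and its log2 difference was -1.88 in the pools with 10 or more gamma-delta T cells.

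Several inflammatory genes were lower as well, in step with the granulocyte RNA of other T cells given above. In the cytokine and chemokine list 5 of 18 tested genes fell, Csf1 (-5.88), Ccl5 (-6.04), Ccl3 (-3.97), Ccl4 (-3.47) and Cxcl2 (-3.49), and 0 rose. Other genes called lower were the myeloid receptor gene Clec4n (-9.17), the neutrophil genes S100a8 (-5.57) and S100a9 (-5.48), the basophil protease gene Mcpt8 (-5.47), Nlrp3 (-6.90), Ptgs2 (-6.76), Acod1 (-6.25), Mpeg1 (-8.90), Cstdc4 (-7.99), Cass4 (-6.87), Cd24a (-6.54), Tnfaip2 (-6.12), Ndrg1 (-5.99), Ifitm1 (-5.87) and Gadd45a (-5.80), all log2 differences. Whether granulocyte RNA set these calls was not tested. Cd24a lost its call under 8 of 14 alternatives, Clec4n and Mpeg1 under 6 of 14 each and Ndrg1 under 6 of 15. Gadd45a lost it under 5 of 15, Cass4 under 4 of 15 and Nlrp3 under 4 of 12, while Acod1 and Cstdc4 kept it under all 14. When only other T cells with at least 50 CPM of Trac were used, a comparison chosen after the data were seen, 4 genes were higher and 16 lower. In that comparison Ccl3, Ccl4 and Cxcl2 turned direction, with log2 differences of 0.94, 0.70 and 0.71 that did not pass the test.

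Of the IL-17-type list, 22 genes were tested against other T cells, 2 were higher (Blk and 5830411N06Rik) and 0 lower, with a median log2 of 2.20 beside -0.71 over all genes. 5830411N06Rik and Cxcr6 of this list were given as markers, so their part in the count and the median is no support. Genes without a call included Sox13 at 238, 0, 111 and 121 CPM against 0, 7.83, 5.49 and 0 CPM. Il23r was at 253, 147, 76.3 and 5.37 CPM against 0, 0, 7.68 and 6.50 CPM, where the groups overlapped. Cxcr6, which guides lymphocytes in skin, was at 357, 176, 614 and 421 CPM against 119, 121, 155 and 52.0 CPM without overlap, and did not pass (log2 1.58, SE 0.66, edgeR adjusted p = 0.438). Maf and Rora, at -0.40 and -0.19, lay within their errors (SE 0.68 and 0.58).

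In the remaining lists 1 of 14 cytotoxic and IFN-gamma-type genes fell (Ccl5), 2 of 9 type 2 genes (Il1rl1, -5.20, and Klrg1, -8.77), the trafficking gene Ccr1 (-4.43), 2 of 25 cytokine receptor genes (Il1r2, -5.07, and Il1rl1), 1 of 14 checkpoint and activation genes (Ctla4, -5.10), 1 of 12 immediate-early genes (Egr1, -2.80) and 1 of 13 metabolic genes (Hif1a, -3.03), and 0 rose. Hif1a lost its call under 9 of 15 alternatives, among them without WT day 3, WT day 5 or Ccr2-/- day 3 (edgeR adjusted p 0.526, 0.116 and 0.0586), and Egr1 did not pass against other T cells with Trac (-0.76). Of the same 15 alternatives, Ccr1 lost its call under 8, Klrg1 under 5 and Ccl5 under 3. Il1r2 and Il1rl1 lost theirs under 2 each and Ctla4 under 1. None passed among 24 transcription factors, 15 cell division genes, 8 interferon-stimulated genes and 5 epidermal gamma-delta T cell genes. Il13 and Il4, type 2 cytokines, had 96.8, 0, 12.4 and 0 and 0, 0, 2.06 and 0 CPM. Of the 19 Il13 reads in the 4 pools, 68.4% came from 1 cell.

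Against NK cells the fit could use the Ccr2-/- pools only, since fewer than 10 gamma-delta T cells were in each WT pool. It left 1 residual degree of freedom. Of 9854 genes tested, 124 were higher (1.26%) and 90 lower (0.913%), with a median log2 of -0.34 over all genes. Of the IL-17-type list 15 of 22 tested genes were higher and 0 lower, with a median log2 of 5.55. The count and the median include 5830411N06Rik and Cxcr6, which were given as markers and are no support. Fitted values of genes at 0 reads in NK cells depend on a prior count, and for these bounds are given against a floor of 3 reads over the group.

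Il17a was at 289 and 34.9 CPM in the Ccr2-/- day 3 and day 5 gamma-delta T cells and at 0 in NK cells, at least 333-fold higher. Sox13, at 111 and 121 CPM, was at least 216-fold higher, and Ccr6, a chemokine receptor gene, at 173 and 64.4 CPM, at least 235-fold. Blk was at least 1087-fold higher and Trgc2 at least 821-fold. In the WT pools Sox13 and Ccr6 likewise had reads in gamma-delta T cells on day 3 and 0 in NK cells, and Il17a had 0 in both classes. Il17a lost its call when cells with Trac of 50 CPM were left out and with DESeq2.

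Genes of survival and tissue residence followed. Il7r, the receptor of a survival cytokine, was at 1181 and 717 CPM against 19.1 and 5.26 CPM (log2 6.37, SE 0.42, edgeR adjusted p = 3.06e-06). Cxcr6 was at 614 and 421 against 8.62 and 17.4 CPM (5.29, SE 0.52, edgeR adjusted p = 8.52e-05), and Cd69, a retention and activation marker, at 1059 and 1197 against 99.3 and 59.9 CPM (3.79, SE 0.33, edgeR adjusted p = 2.75e-05). Itgae, the integrin chain CD103, was at 334 and 118 CPM against 0, at least 449-fold higher. In the trafficking list 6 of 18 tested genes were higher. The cytokine receptor list had 4 of 22 higher, Il7r, Il2ra (4.32), Il18r1 (3.25) and Tnfrsf25 (6.43), and Il2rb (-2.28) lower.

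Maf (4.56), Rora (3.19), Bcl11b (5.83), Ikzf2 (5.54), Tcf7 (3.56) and Nr4a1 (1.43) were among 8 of 24 transcription factors that were higher, and Eomes (-3.32) was the only one lower. Trdv4, Trgc1, Trgc2 and Trgc4 were the 4 of 6 gamma-delta receptor genes tested that were higher. Trac (3.66), Trbc2 (2.09) and Tcf7 were 3 of 7 alpha-beta lineage genes higher. Trac was at -7.44 and did not pass once cells with Trac of 50 CPM were left out, which that setting fixes by construction. Lat (2.54) was higher and Lck lower in the signalling list of 11 tested. Lck was at 0 in both Ccr2-/- gamma-delta pools against 119 and 123 CPM, at least 34.5-fold lower, and kept its call under all 9 alternatives.

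The largest differences by the naming rule also held Sit1, a receptor adaptor gene, at 111 and 96.6 CPM against 0, Actn2 at 293 and 285 against 0.638 and 0.405 CPM, the interferon-inducible GTPase genes Gbp6 (log2 7.23) and Gbp10 (7.28), Coro2b (7.23) and Tmem156, at 37.1 and 110 CPM against 0.

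Cytotoxic genes were lower than in NK cells: 9 of 16 tested genes fell and 0 rose. Gzma was at 1733 and 2483 CPM against 25639 and 24476 CPM (log2 -3.66, SE 0.16, edgeR adjusted p = 1.33e-07), Gzmb at 270 and 1125 against 8645 and 6397 CPM (-3.80, SE 0.44, edgeR adjusted p = 0.000315) and Prf1 at 18.5 and 123 against 1097 and 1274 CPM (-4.51, SE 0.49, edgeR adjusted p = 0.000194). Nkg7 (-3.92), Ccl5 (-6.72), Klrd1 (-2.53), Klrc1 (-3.05), Il2rb and Eomes were the others. By the naming rule, genes lower than in NK cells further held the receptor genes Klre1, Klri2 (-4.87), Lag3 (-6.30) and Fcrl6 (-6.31), with Adamts14, Gimap7, Serpinb9b, Apobr, Hmga1 (-5.63), Arsb (-5.62) and Tpi1 (-4.28).

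The other lists gave few calls against NK cells: 6 of 12 immediate-early genes higher (Fos 1.54, Fosb 1.86, Jun 1.55, Junb 1.001, Atf3 3.74, Zfp36 1.39), 3 of 7 epidermal gamma-delta T cell genes higher and 2 lower (Fcer1g, -2.14, and Klre1), 2 of 14 cytokines and chemokines higher (Il17a and Cxcl2, 1.99) and 2 lower (Ccl4, -1.98, and Ccl5), 3 of 12 checkpoint and activation genes higher (Cd69, Cd44, Il2ra) and 1 lower (Lag3), 2 of 19 cell division genes lower (Pcna, -1.51, and Mcm5, -3.60) and 1 of 11 metabolic genes lower (Ldha, -1.21). None passed among 5 type 2 genes and 7 interferon-stimulated genes. With a gate of 200 CPM, Cxcl2 turned direction (-0.56) and did not pass. A single cell gave 92.9% of the 849 Cxcl2 reads of the gamma-delta T cells on Ccr2-/- day 5.

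Between genotypes, an additive fit of day and genotype over the 4 pools left 1 residual degree of freedom, and the WT side held 11 cells. Of 4289 genes tested, 2 were higher in Ccr2-/- (0.0466%) and 0 lower, against 94 higher and 13 lower at an unadjusted p under 0.05. The median log2 over all genes was 0.83, and 0.63 with scaling by library size only. DESeq2 called 0 genes in either direction.

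Gzma was at 0, 0, 1733 and 2483 CPM, read in 0, 0, 6 and 6 cells, and was at least 139-fold higher in Ccr2-/- against a floor of 3 reads. It was the level of few cells: 1 cell gave 97.0% of the reads on Ccr2-/- day 3 and another 47.0% on day 5. That of day 3 had the lowest Trdc and Cd163l1 sum of all members, 94.5 CPM, and Trac at 284 CPM. That of day 5 had Trac at 152 CPM. Both lacked a read of a gamma constant gene. The next cells of day 5, with 427 and 58 Gzma reads, had Trac at 0. Their Trdc and Cd163l1 sums were 887 and 1207 CPM. On day 3 a cell with 15 Gzma reads had Trac at 664 CPM and a sum of 10865 CPM. Another with 7 had Trac at 0 and a sum of 4765 CPM. Of the 5 cells with 10 or more Gzma reads, 4 held neither Scart gene. The cells with a Scart gene had 41.3 and 16.3 CPM in the Ccr2-/- pools, beside 37.7 and 69.7 CPM in the fibroblasts of those pools. In NK cells Gzma was at 17661, 13609, 25639 and 24476 CPM.

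Rgs1, a regulator of G-protein signalling, was at 246, 953, 2935 and 2883 CPM, read in 4 of 9, 1 of 2, 24 of 28 and 20 of 21 cells. Both Ccr2-/- pools lay above both WT pools, with a log2 difference of 2.86 (SE 0.57, adjusted p = 0.000964, edgeR quasi-likelihood test with Benjamini-Hochberg adjustment). In the Ccr2-/- pools 1 cell gave at most 14.7% of the reads, whereas in the WT pools 1 cell gave 84.8% of 33 reads on day 3 and all 65 reads on day 5. Other T cells, at 1741, 2395, 2310 and 1653 CPM, and NK cells, at 2056, 2251, 2041 and 2319 CPM, had no such order. The difference between the cell types was not tested. Rgs1 lost its call under 5 of 9 alternatives and Gzma under 1 of the 8 in which it had a value. The remaining setting left out cells with Trac of 50 CPM, and no gene was called there. Leaving out cells over 150000 reads removed no gamma-delta T cell of the pools, so that alternative could not change either call. Without the hashtag pseudocount and minimum the pools again held 9, 2, 28 and 21 of these cells, so that alternative also says little.

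**Figure D5:**
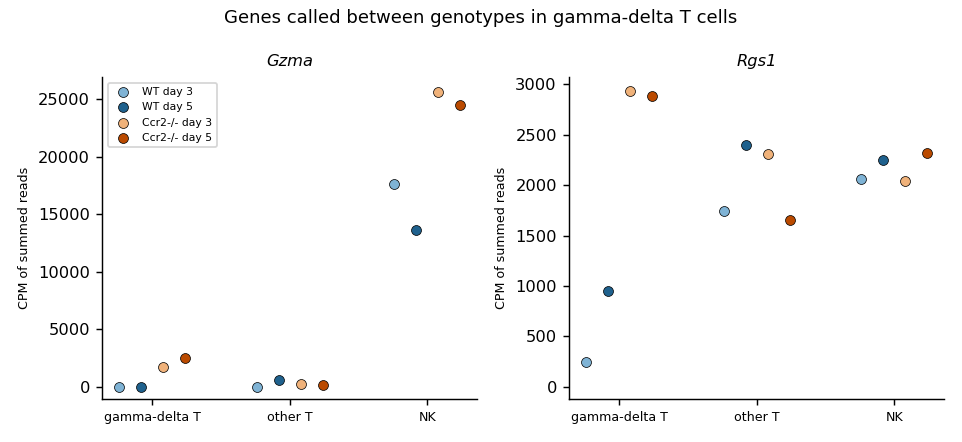
Points give CPM of summed reads (linear axis) for Gzma and Rgs1 in the gamma-delta T, other T and NK cells of each pool. Rgs1 in gamma-delta T cells lies below 1000 CPM in both WT pools and above 2800 CPM in both Ccr2-/- pools, and Gzma lies far higher in NK cells than in gamma-delta T cells.

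The genes that mark these cells did not pass between genotypes. Blk (log2 1.23, SE 0.79), Trgc1 (0.81, SE 0.72), Cxcr6 (1.28, SE 0.83) and Il7r (0.43, SE 0.62) had errors at which a difference of several fold cannot be told apart from none. Il17a was at 0, 0, 289 and 34.9 CPM, read in 6 cells of the Ccr2-/- pools, and Il17f at 52.1, 0, 68.0 and 34.9 CPM. The 0 in the WT pools comes from 11 cells. Of the 20 IL-17-type genes tested 0 were called, and the 6 cytotoxic genes tested had 1, Gzma.

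Between day 5 and day 3, 0 of 4289 genes were called in either direction by edgeR and by DESeq2, with 14 higher and 41 lower at an unadjusted p under 0.05. Fosb, an immediate-early gene, was at 4318 CPM on WT day 3 and 235 on WT day 5 and at 2045 and 1519 CPM in the Ccr2-/- pools, lower on day 5 in both genotypes without passing the test (log2 -2.44, SE 0.63, edgeR adjusted p = 0.227).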

How the data were processed

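The deposited values are counts of reads, by gene for each barcode in the cDNA matrix and by hashtag antibody for each barcode in the hashtag table. To make them, the authors used Cutadapt for trimming and Bowtie2 for alignment to mouse Ensembl RNA (GRCm38), and filtered barcodes at the knee-plot inflection. Their background correction left no visible trace in the values. Reads are not molecules, since copies made by PCR were counted separately. The matrix held 8953 barcodes with 548117598 reads. Of these, 594 were over the mitochondrial limit, and 257 had no entry in the hashtag file.

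A barcode with at least 10 hashtag reads went to its strongest hashtag (count plus a pseudocount of 1 read, over that hashtag's total) where this exceeded the runner-up at least 3 times. This gave 7118 cells with a pool. The members, marker lists, gene lists and tests were chosen with earlier results of these data known. Reads were summed per pool and class and tested with edgeR 4.0.16 in R 4.3.3 (TMM, filterByExpr, quasi-likelihood test, Benjamini-Hochberg adjustment, threshold 0.05). Classes were compared with the pool as a block and genotypes with day as a covariate. The SE beside an edgeR log2 difference was derived as its absolute value over the square root of the F statistic of the test. It is approximate and is not a standard error given by the fit. The comparison with NK cells used pools with at least 10 cells of each class; that with other T cells used all 4. With the pools as samples, p-values between classes measure how far the class difference varied between pools. Those between genotypes, between days and against NK cells rest on 1 residual degree of freedom. The spread within a genotype and day was not measured, since each had 1 pool, and how many mice a pool held was not stated. Shares carry exact (Clopper-Pearson) 95% intervals from scipy 1.17.1. The rule for named genes took, per comparison and direction, up to 15 called genes with the largest log2 difference, the same sign in every pool and a read in at least 10% of the cells of the higher class, leaving out gate, mitochondrial and predicted genes, and allowed members of the 16 gene lists. The Scart subset genes were described after their values were seen. The edgeR fit was tested on simulated counts. Results of some listed genes are not reported here. Alternatives included DESeq2 1.42.0, library sizes, other gates and hashtag limits, no filter on low counts and leaving out each pool. Scrublet marked 0.0359% of the 8359 barcodes and 0 members, so doublets were removed by hashtags only. The file holds 9 hashtag columns that the labels give to no pool.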

Additional observations from a re-analysis of the deposited data

Results flagged for a closer look

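The hashtag file held 14422 reads in the 9 columns that the labels give to no pool, a signal in data that the comparisons did not use. These were 0.0276% of all hashtag reads, 8943 of them were in 1 column, and 0 of the 62 gamma-delta T cells had a read in any of them.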

How the results depend on the processing

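The share of gamma-delta T cells was higher in Ccr2-/- under all alternatives, with a difference of 0.503 to 0.893 percentage points when a pool was left out. Against other T cells the 6 genes higher and 71 lower became 3 higher with Trdc alone as the gate, 2 higher without cells that had Trac of 50 CPM, and 19 higher and 123 lower with DESeq2. In comparisons added after the data were seen, 3 genes were higher and 33 lower in the pools with 10 or more gamma-delta T cells, and 16 lower against other T cells with Trac. Leaving out a pool gave 3 to 12 higher and 38 to 79 lower (3 higher and 42 lower without WT day 3, 3 and 38 without Ccr2-/- day 5, 12 higher without WT day 5). Against NK cells the 124 genes higher became 78 without cells with Trac and 233 with DESeq2, and the 90 lower became 159 with a hashtag ratio of 10, 136 without the hashtag pseudocount and minimum, and 232 with no filter but 1 read. Between genotypes the 2 genes higher became 1 with a gate of 200 CPM, with Trdc alone and with library sizes only, and 0 without cells with Trac and with DESeq2. Between days 2 genes were lower with no filter. Reversed log2 differences, none past the threshold, were those of Ccl3 (0.94), Ccl4 (0.70) and Cxcl2 (0.71) against other T cells with Trac, of Cxcl2 against NK cells with a gate of 200 CPM (-0.56), and of Trac against NK cells without cells with Trac (-7.44), which that setting removes by construction. The cause of the others was not tested. Of the genes called, 74 against NK cells, 38 against other T cells and 2 between genotypes were recomputed one by one. They kept their call in 610 of 662, 422 of 560 and 11 of 17 alternatives, and 45, 4 and 0 of them kept it in all. These counts include the limit of 150000 reads per cell. It could not change a call against other T cells or between genotypes. The highest totals were 47739 reads in gamma-delta T cells and 135465 in other T cells.

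No paired analysis was possible because each genotype and day had 1 pool, although the pool was a block between classes. Not run were the Scrublet alternative, a fit between Scart subsets, and leaving out a pool in the genotype, day and NK fits, which left no residual degrees of freedom or 1 pool. The 2 cells of WT day 5 and the 11 WT cells limit all genotype values.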

Other observations

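The cell division genes did not share one pattern over the Scart subsets. Pcna was read in 21 of the 62 cells, 14 of them with 5830411N06Rik only, and Mcm2 in 10, of which 4 held Cd163l1 only and 2 held 5830411N06Rik only. Mki67 was read in 4 of the 27 cells with 5830411N06Rik only, 0 of the 15 with Cd163l1 only and 1 each of the cells with both and with neither. Top2a, a topoisomerase of dividing cells, was read in 4 of 27 (478 CPM of the summed reads) and 2 of 15 (34.2 CPM), and Ube2c in 6 of 27 and 0 of the other subsets. Tnf was read in 8 of 15 cells with Cd163l1 only (380 CPM), 6 of 27 with 5830411N06Rik only (83.3 CPM), 0 with both and 1 with neither. Icos, a costimulatory receptor gene, was read in 7 of 15 (843 CPM) and 4 of 27 (104 CPM). It was also read in 2 of 6 with both (726 CPM) and 4 of 14 with neither (197 CPM). Fcer1g, a signalling chain that epidermal gamma-delta T cells and NK cells use, was read in 6 of 15 (569 CPM) and 1 of 27 (152 CPM). It was also read in 2 of 6 with both (22.9 CPM) and in 6 of 14 with neither (661 CPM). The CD3 chain gene Cd247 was read in 9 of 15 and 16 of 27. These genes were chosen after their values were seen, and no test was made between the subsets.

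The immediate-early genes Fos and Fosb, which can rise while tissue is digested, were read in 12 and 15 of the 15 cells with Cd163l1 only and in 25 and 25 of the 27 with 5830411N06Rik only.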
